A study of Sus scrofa with 12 samples.

Results

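The genes described here encode the protein subunits of the cytoplasmic ribosome, measured in the longissimus dorsi, the long back muscle, of Meishan pigs. They were chosen by symbol: every probe set annotated with 1 gene whose symbol begins with RPL or RPS and a digit, or is RPSA, RPLP0, RPLP1 or RPLP2, without the S6 kinases, and the brightest probe set of each symbol over the 12 arrays. The choice gave 64 genes of the 6765 symbols on the array, of which 37 belong to the large subunit and 25 to the small subunit. The other 2, RPL7L1 and RPS19BP1, carry a matching symbol but are known as factors around the ribosome, and were kept out of both subunits. A total of 62 genes gave signal above the filter on dim probe sets. RPL26, with a mean intensity of 26.9, and RPS15A, with 24.1, did not pass and have no test.

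Muscle was taken at 4 stages with 3 arrays each: from fetuses at 65 days post coitus, and from pigs 3, 60 and 120 days after birth. All animals were Meishan kept under ordinary commercial feeding with no treatment, and the fetuses of 1 sow stood for 1 individual, so a fetal array may hold RNA of several littermates. Total RNA was hybridised to Affymetrix porcine arrays, and values are intensities of labelled RNA on a linear scale. The arrays of a stage are described as biological replicates, with nothing said of litters after birth, so p-values measure the spread between these samples, and 3 arrays a stage limit the precision.

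Each ribosome is built from a large and a small subunit, in which many proteins, most of them 1 copy each, fold and support the ribosomal RNA. The mRNAs of these proteins begin with a terminal oligopyrimidine tract, a run of pyrimidines through which growth signalling raises or lowers their translation together. Striated muscle is known for replacing RPL3 with a muscle paralog, RPL3L. RPL3L, RPL39L, RPL10L, RPL36A and the Y-linked RPS4 genes had no probe set with a single symbol and were not analysed here.

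The muscle label was checked against its markers. The 7 muscle markers found of 11 were all above the filter, and their summed intensity was 19304 to 27853 in the fetus and 38513 to 44570 after birth. Markers of fibroblasts (6 of 9 found) summed to 8520 to 13146 in the fetus and to 2877 to 5483 on the 9 later arrays. Markers of dividing cells (8 of 10 found) summed to 1407 to 2288 on the fetal arrays, then 654 to 959 at 3 days, 426 to 707 at 60 days and lastly 520 to 565 at 120 days. Immune markers (15 of 22 found) summed to 793, 580 and 7969 on the fetal arrays and to 1084 to 3191 on the later arrays. The third fetal array thus stood apart from the other fetal arrays in these markers. Its part in the comparisons with the fetus was not tested. No marker of any list was listed at 0. In whole muscle, fewer cells of a type and less RNA per cell cannot be told apart.

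The first 60-day array stood apart in these genes before any comparison was made. None of the 62 genes reached its own 60-day mean on it, whereas 60 and 58 did on the other 60-day arrays. That mean includes the first array, so a low value there by itself places the other 60-day arrays higher against it. The median intensity of the 62 genes was 2356 on this array and 3766 to 4512 on the other 11, and it was the lowest of the 12 arrays for 55 of the 62 genes. The genes lay a median 0.54 below their stage mean there on the log2 scale, by 0.53 in the large subunit and 0.59 in the small. Over all probe sets on the same array 52.7% lay above their stage mean, with a median deviation of 0.015. Among 268 other probe sets with a mean intensity of at least 2000, 94 (35.1%) lay above, with a median of -0.14. These 268 leave out the probe sets of the chosen genes only, so transcripts of ribosomal proteins named otherwise or unlisted may be among them.

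The shortfall was not the same for every ribosomal protein. RPL36AL deviated by -1.21, RPL26L1 by -0.98 and RPS21 by -0.96, whereas RPL4 deviated by -0.019, RPL3 by -0.15, RPLP0 by -0.18 and RPS3A by -0.21. On this array the actin probe sets near the 3′ end gave 6.18 times the signal of those near the 5′ end, the highest ratio of the 12, with 5.96 on a 120-day array next. Its ratios for GAPDH, 0.955, and EF1A, 1.01, lay within those of the other 60-day arrays (0.944 to 0.963 and 0.994 to 1.08). Its fibroblast marker sum, 5483, and adipocyte marker sum (6 of 8 found), 3260, were the highest of the 3 arrays at 60 days. The part of these in the shortfall was not tested. The median changes of the ribosomal protein genes at 60 days are therefore given with and without this array. Other results at 60 days are from all 12 arrays unless said otherwise.

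**Figure D1:**
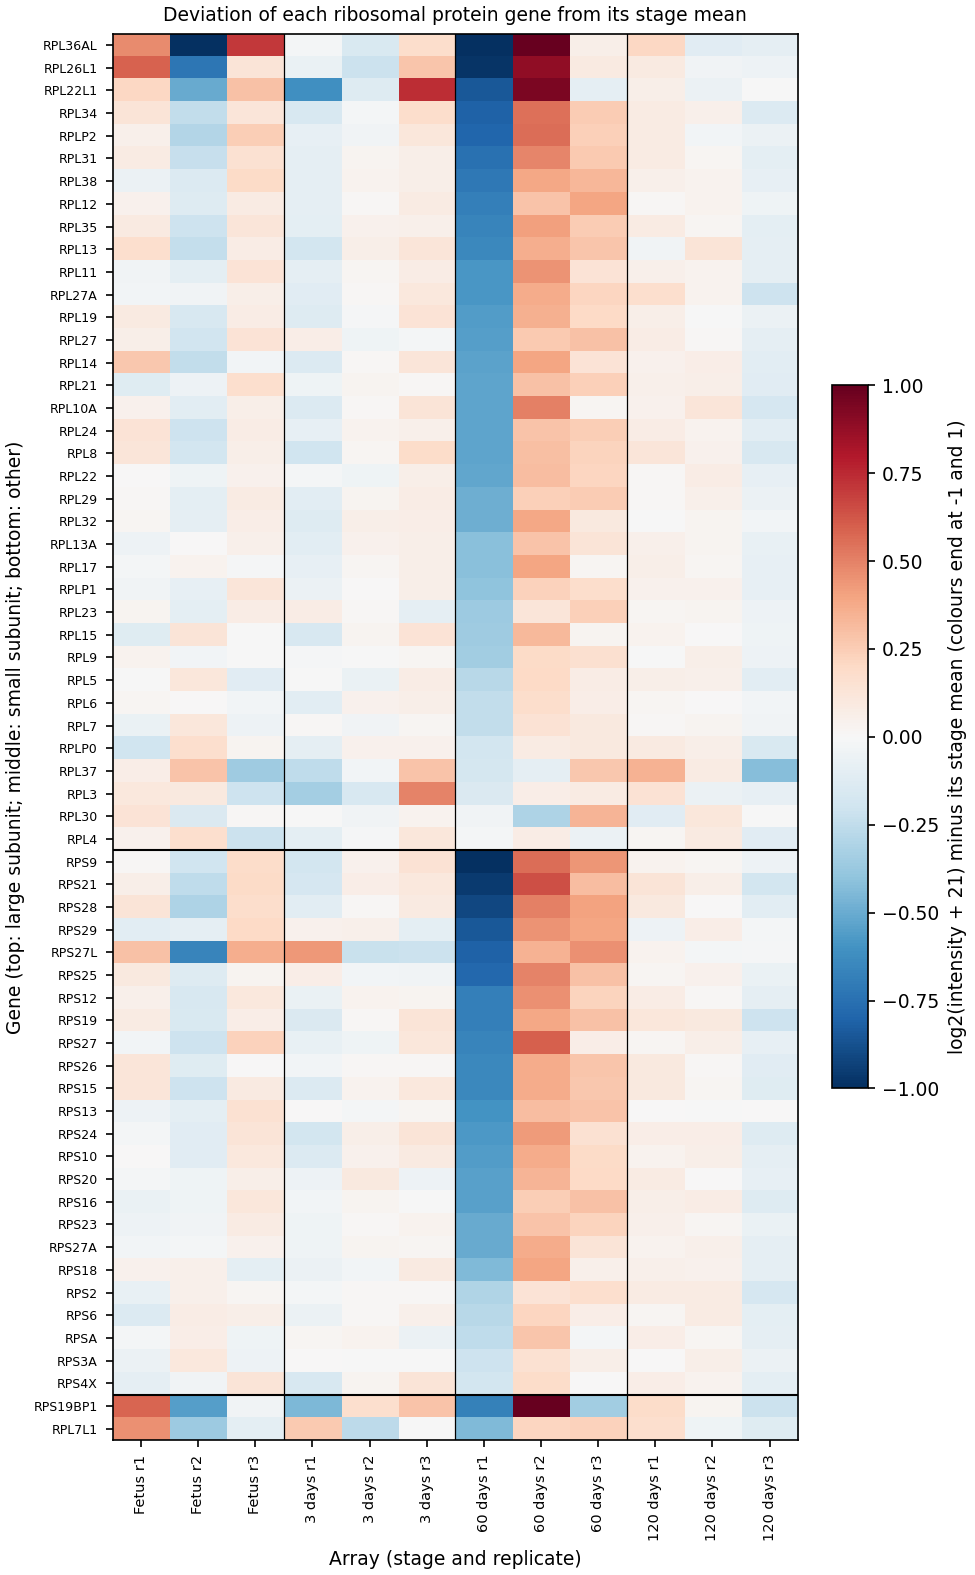
Deviation of each of the 62 ribosomal protein genes (rows; large subunit, small subunit and the 2 other genes from top to bottom) from its own stage mean, as log2(intensity + 21), on each of the 12 arrays (columns); red is above and blue below. The first 60-day array is blue in every row, and the other 60-day arrays are red in 60 and 58 rows.

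Smaller shared shifts appeared elsewhere. On the third 120-day array 1 gene of 62 lay above its stage mean, with a median deviation of -0.089, and on the first 3-day array 10 did, with -0.086. On the second fetal array 15 did, with -0.10. Over all probe sets 50.2%, 49.2% and 52.9% lay above on these 3 arrays.

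Changes between stages were tested with limma on log2(intensity + 21), with Benjamini-Hochberg adjustment over 16166 probe sets and a call at an adjusted p under 0.05. A log2 change is written with its standard error, and on this scale the change of a dim gene is understated. Over all 4 stages, 46.9% of all probe sets changed by the F test, against 2 of the 62 ribosomal protein genes, RPL3 (limma adjusted p = 3.86e-05) and RPSA (limma adjusted p = 0.035). An unadjusted p under 0.05 was found for 7 of the 62 genes and for 8948 of the 16166 probe sets. Without the first 60-day array 10 genes were called, and without the second 60-day array 12. The count was 1 without any of 8 others, the first or second fetal, each 3-day, the third 60-day and the first or second 120-day array.

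RPL3, a core protein of the large subunit that reaches the peptidyl transferase centre, was called lower at the first and the second step and over the whole span. Its intensity was 3893, 3877 and 3134 on the fetal arrays, then 1611, 1828 and 2895 at 3 days, 895, 1039 and 1055 at 60 days and lastly 811, 700.3 and 688 at 120 days. All 3 arrays of each stage lay below all 3 of the stage before, with no overlap at any step. The stage means were 3635 ± 433, 2111 ± 687, 996 ± 88.3 and 733 ± 67.5 (SD, n = 3), so the mean at 120 days was 4.96-fold lower than in the fetus.

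The change of RPL3 from fetus to 3 days was -0.82 ± 0.22 (limma adjusted p = 0.0105), and it kept its call without each array but the first at 3 days (limma adjusted p = 0.0522). From 3 to 60 days it was -1.02 ± 0.22 (limma adjusted p = 0.0423). That call held without the second or the third fetal array only, and was lost without each of the other 10, among them the first 60-day array (log2 change -0.95, limma adjusted p = 0.108). From 60 to 120 days the value of -0.43 ± 0.22 did not pass (limma adjusted p = 0.782), nor did -0.51 without the first 60-day array (limma adjusted p = 0.961). Over the whole span, 120 days against fetus, RPL3 fell by 2.27 on the log2 scale (SE 0.22, limma adjusted p = 1.29e-05). Against 3 days, it was lower by -1.46 ± 0.22 at 120 days (limma adjusted p = 0.00449). Both of these calls held in all 24 alternatives, and the change against fetus stayed between -2.71 and -2.22.

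RPL3 moved away from the other ribosomal protein genes. Measured on each array against the median of the other ribosomal protein genes, RPL3 had stage means of -0.27 ± 0.24, -1.06 ± 0.37, -1.80 ± 0.36 and -2.42 ± 0.11 (log2, SD, n = 3). The first 60-day array, with -1.39, was the highest of its stage on this relative scale. RPL3 deviated by -0.15 from its stage mean there, and the 62 genes by a median of -0.54. These offsets hold probe brightness too, so only their change between stages is read. RPL3 had 1 probe set with its single symbol, and whether transcripts of a near-identical copy bind that probe set was not tested. The summed markers of dividing cells and of fibroblasts given above were also lower at 3 days than in the fetus. Of 8 markers of dividing cells limma called 5 lower and 1, AURKB, higher there, and of 6 fibroblast markers 4 lower and 0 higher. Their part in the RPL3 values was not tested.

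**Figure D2:**
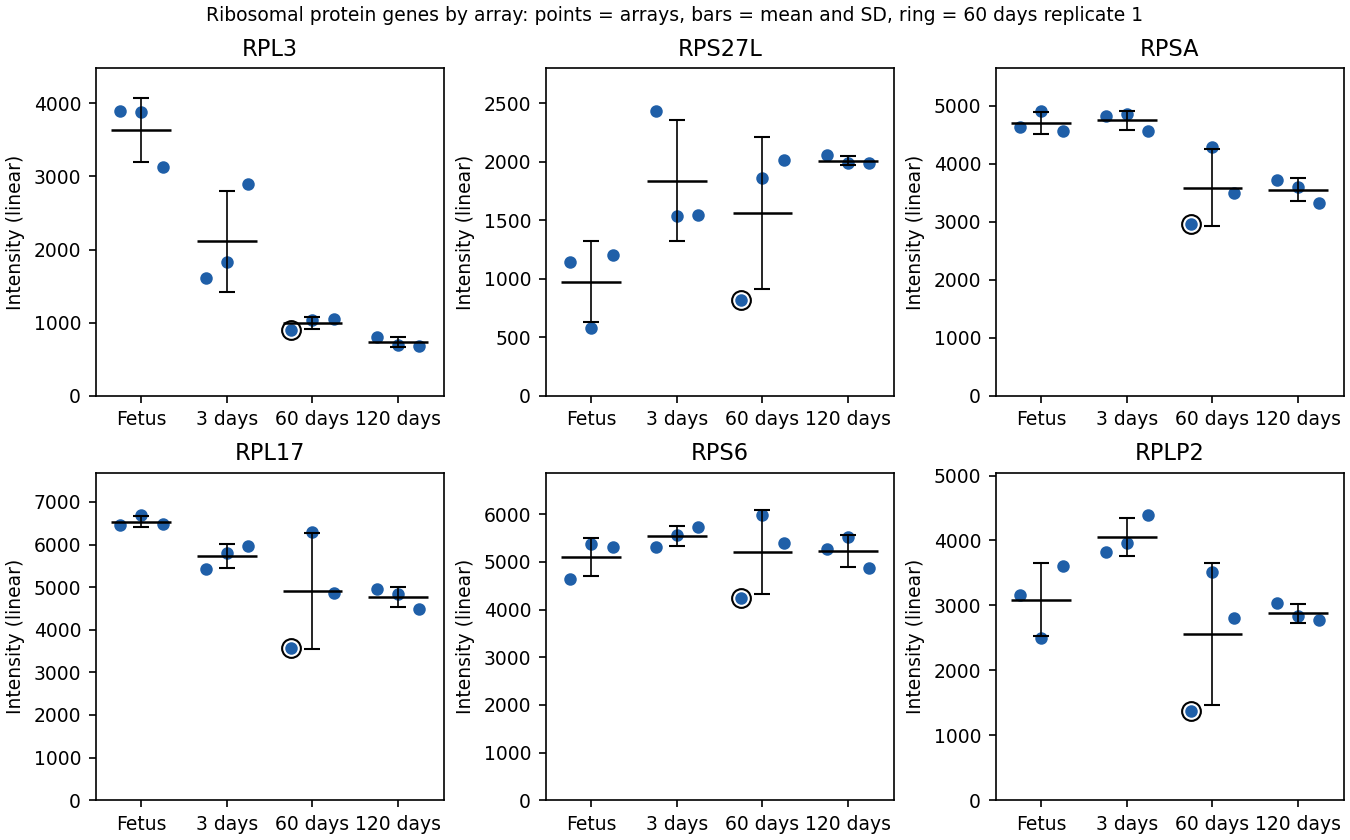
Intensity (linear) of 6 ribosomal protein genes on each array by stage; points are arrays, bars the stage mean and SD of 3 arrays, and a ring marks the first 60-day array. RPL3 steps down from 3635 in the fetus to 733 at 120 days, RPS27L lies higher after birth on 8 of 9 arrays, and RPLP2 and RPL17 have their lowest value on the ringed array.

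RPS27L, a paralog of the small subunit protein RPS27 that is known as a target of p53, was the only member called higher at any step. Its intensity was 1146, 580 and 1202 on the fetal arrays, then 2433, 1534 and 1543 at 3 days, 822, 1859 and 2012 at 60 days and lastly 2054, 1985 and 1990 at 120 days. The fetal arrays lay below all arrays at 3 and 120 days, while the first 60-day array fell among the fetal values. The change from fetus to 3 days was 0.93 ± 0.35 (limma adjusted p = 0.0499), and that to 120 days 1.10 ± 0.35 (limma adjusted p = 0.0225). The first call was lost in 8 of 12 fits with 1 array left out (any but the third fetal and the 60-day arrays), with limma adjusted p up to 0.197. The second was lost without the second fetal array (limma adjusted p = 0.0969) or without any 120-day array (limma adjusted p = 0.055 to 0.0569).

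Its parent gene RPS27 went from 5056, 4461 and 6021 in the fetus to 4089, 4201 and 3798 at 120 days. All fetal arrays lay above, but the change of -0.35 ± 0.25 did not pass (limma adjusted p = 0.261). Whether the change of RPS27L differs from that of RPS27 was not tested. The RPS27L probe set has a suffix of the array's design that marks probes shared between transcripts, as have 9 of the 64 genes, so its signal may include related transcripts.

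Among the other genes, RPL37 of the large subunit was the only further gene called from fetus to 3 days. It is dim, with 126, 151 and 89.4 in the fetus and 49.7, 61.9 and 81.8 at 3 days, and then 62.6, 67.9 and 93.0 at 60 days and 117, 93.4 and 59.7 at 120 days. The fetal arrays lay above the 3-day arrays without overlap, and the 120-day arrays spread over both. The log2 change was -0.74 ± 0.23 (limma adjusted p = 0.0217), and it was lost without the first or second fetal array (limma adjusted p = 0.0571 and 0.0862) and without the first or second 3-day array (0.0872 and 0.0577). From fetus to 3 days 1 of 62 genes was thus called higher and 2 lower, against 20.3% and 22.6% of all probe sets. The median change of the 62 genes was 0.014, with 29 below 0. The count of 3 became 0 without the first 3-day array, 1 without the first or second fetal or the second 3-day array, and 6 without the first 60-day array.

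From 3 to 60 days 0 of the 62 genes were called higher and 1 lower, RPL3, by limma; in all probe sets 0.786% were called higher and 0.742% lower, and 10 of the 62 genes and 2680 of the 16166 probe sets had an unadjusted p under 0.05. Of the 62 genes, 60 had a negative change, with a median of -0.29, against 50.1% of all probe sets. Without the first 60-day array the median was -0.020 and 36 were negative, and 0 were called in either direction. From 60 to 120 days the limma fit called 0 of 62 in either direction, as it did for 0% of all probe sets higher and 0% lower, and 0 of the 62 genes, against 1021 of 16166 probe sets, had an unadjusted p under 0.05. The median was 0.17 with 11 genes below 0, and it turned to -0.10 with 57 below 0 without that array.

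Over the whole span the genes were more often lower. At 120 days against fetus 43 of 62 had a negative change (49.8% of all probe sets did), with a median of -0.16. The limma calls were 1 higher and 4 lower, against 23.4% and 25% of all probe sets. The arrays of both stages did not overlap for 3 genes that were higher and 26 that were lower, 46.8% of the 62. Of all 16166 probe sets 4856 were higher and 4950 lower without overlap, 60.7% in all. The count of 5 became 1 without the second fetal or any 120-day array, 2 without the first or the third fetal or the first or second 3-day array, and 3 without the third 3-day or the third 60-day array. Against 3 days 51 of 62 were negative (51.2% of all probe sets), with a median of -0.14. The calls there were 0 higher and 1 lower, RPL3, against 2.29% and 2.12% of all probe sets, with 4 genes, and 3143 of the 16166 probe sets, at an unadjusted p under 0.05. Neither median uses the 60-day arrays, whose spread does enter the standard error of every gene. At 120 against 3 days the arrays did not overlap for 1 gene that was higher and 30 that were lower, 50% of the 62. Of all 16166 probe sets 2588 were higher and 2530 lower without overlap there, 31.7% in all. The actin ratio of 3′ to 5′ signal was 2.32 to 2.64 in the fetus and 4.17 to 5.96 at 120 days, and that of GAPDH 1.45 to 1.48 and 0.927 to 0.964. The part of these in the medians was not tested.

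The other 3 genes called lower at 120 days than in the fetus were RPSA, RPL17 and RPS4X. RPSA, a small subunit protein also known as a laminin receptor, had 4630, 4913 and 4575 on the fetal arrays, then 4822, 4858 and 4570 at 3 days, 2972, 4297 and 3506 at 60 days and lastly 3724, 3605 and 3332 at 120 days. Its fetal and 3-day arrays all lay above all later arrays, and the change at 120 days was -0.40 ± 0.15 (limma adjusted p = 0.0374). RPL17, which lines the exit of the peptide tunnel, went from 6452, 6688 and 6478 in the fetus to 5429, 5809 and 5974 at 3 days and 4958, 4838 and 4498 at 120 days. The 3 stages did not overlap, and the change at 120 days was -0.46 ± 0.17 (limma adjusted p = 0.0445).

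RPS4X, the X-linked small subunit protein, had 2601, 2695 and 3019 in the fetus, 2395, 2732 and 2930 at 3 days and 2179, 2130 and 1947 at 120 days. The 120-day arrays lay below all others of these 3 stages, and the change against fetus was -0.41 ± 0.16 (limma adjusted p = 0.0494). These 3 calls lay close to the threshold. RPSA lost its call in 8 of 12 fits with 1 array left out (each fetal, each 120-day and the first and second 3-day array; limma adjusted p = 0.0525 to 0.116). RPL17 and RPS4X kept theirs only without the first or the second 60-day array, and otherwise had limma adjusted p of 0.0544 to 0.122 and 0.0553 to 0.143.

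Leaving out the first 60-day array narrowed the spread and raised the number of calls, though it moved no value outside 60 days. At 120 days against fetus 3 genes were then called higher and 14 lower by limma, beside 24.2% and 25.6% of all probe sets. The genes added to those above were RPL9, RPL13, RPL14, RPL15, RPL32, RPS9, RPS12, RPS18, RPS20 and RPS27A, all lower by 0.27 to 0.48 on the log2 scale, and RPL38 (0.36) and RPLP1 (0.31), which were higher here but at -0.068 and -0.13 with all arrays centred on spiked controls. At 3 days against fetus 4 were called higher, RPS27L, RPS2 (0.34), RPLP2 (0.41) and RPLP1 (0.26), and 2 lower, beside 21.1% and 23.1% of all probe sets. At 120 against 3 days RPS12 (-0.59) joined RPL3 among the lower genes. The 14 of 62 called lower lie near the share of all probe sets, and the 3 of 62 called higher lie below it.

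None of the 3 acidic stalk proteins, which recruit the translation factors, was called by its brightest probe set with all 12 arrays. Dim probe sets of RPLP0 and RPLP1, with means of 47.7 and 41.7, were called lower than in the fetus at 3 and at 120 days. At 120 days they changed by -0.44 and -0.72 (limma adjusted p = 0.00471 and 0.00022). RPLP0, the stalk base and a common reference gene, had stage means of 5791 ± 742, 6536 ± 357, 5847 ± 619 and 5707 ± 516 (SD, n = 3), with overlapping arrays from fetus to 60 days and a change at 120 days of -0.02 ± 0.14 (limma adjusted p = 0.929). RPLP1 had 5016, 4853 and 5589 on the fetal arrays, then 5900, 6173 and 6410 at 3 days, 4101, 6374 and 6158 at 60 days and lastly 6554, 6548 and 5995 at 120 days. Its fetal arrays lay below all arrays of 3 and 120 days, but the changes of 0.26 ± 0.16 and 0.31 ± 0.16 did not pass with all arrays (limma adjusted p = 0.213 and 0.136). RPLP2 had 3153, 2492 and 3612 on the fetal arrays, then 3828, 3964 and 4389 at 3 days, 1366, 3516 and 2811 at 60 days and lastly 3043, 2831 and 2768 at 120 days, highest at 3 days and lowest on the first 60-day array.

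RPL5 and RPL11, which bind the 5S ribosomal RNA and can hold back the p53 regulator MDM2, had stage means of 4323 ± 351 and 6141 ± 528 in the fetus and 3794 ± 241 and 5101 ± 276 at 120 days (SD, n = 3). The changes of -0.19 ± 0.15 and -0.26 ± 0.21 did not pass (limma adjusted p = 0.322 and 0.317), although for both genes every 120-day array lay below every fetal one. RPL13A, RPL19 and RPL32, which are often taken as reference genes, changed by -0.24 ± 0.16, -0.08 ± 0.21 and -0.30 ± 0.19 over the same span. None of these passed with all arrays (limma adjusted p = 0.251, 0.766 and 0.217), and RPL32 passed without the first 60-day array. Of the 12 arrays, the first at 60 days was the lowest for RPL13A (3572), RPL19 (1969) and RPL32 (2524).

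In the small subunit, RPS6, the target of the S6 kinases, was among the 3 steadiest genes. Its intensity stayed between 4241 and 5981 on the 12 arrays, and it changed by 0.03 ± 0.14 from fetus to 120 days (limma adjusted p = 0.866). RPL7 (3585 to 4872) and RPS3A (4232 to 6007) were the other 2, with log2 SDs over the 12 arrays of 0.11 and 0.13 beside 0.14 for RPS6. RPS19, known for its mutations in Diamond-Blackfan anaemia, had stage means of 6194 ± 551, 5821 ± 554, 4628 ± 1649 and 5300 ± 643 (SD, n = 3), and its change to 120 days of -0.23 ± 0.24 did not pass (limma adjusted p = 0.448). RPS12 was highest at 3 days, with 5404, 5813 and 5776, against 4836, 4170 and 5021 in the fetus and 3958, 3786 and 3516 at 120 days. Those 3 stages did not overlap, and the change from 3 to 120 days was -0.59 ± 0.23 (limma adjusted p = 0.187, and 0.014 without the first 60-day array).

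The widest log2 SDs over the 12 arrays, which hold changes between stages as well as spread within them, were those of RPL3 (0.95), RPL36AL (0.69) and RPS27L (0.61). RPL36AL, a retrogene copy of RPL36A, had 1049, 318 and 1240 on the fetal arrays, then 849, 773 and 979 at 3 days, 289, 1570 and 722 at 60 days and lastly 911, 725 and 738 at 120 days. Its low values lay on the second fetal and the first 60-day array, and no change passed (limma adjusted p = 0.791 to 0.975). RPL26L1, a close copy of RPL26, had its lowest values on the same arrays, 393 among 1006 and 725 in the fetus and 206 beside 806 and 453 at 60 days.

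RPL22L1, the paralog of RPL22, had 1575, 953 and 1668 on the fetal arrays, then 556, 785 and 1452 at 3 days, 537, 1907 and 921 at 60 days and lastly 1028, 946 and 981 at 120 days. Its change to 3 days of -0.65 ± 0.43 did not pass (limma adjusted p = 0.24), and that of RPL22 was 0.10 ± 0.19 (limma adjusted p = 0.708). RPL7L1, a factor of ribosome assembly, and RPS19BP1, which binds RPS19, changed by -0.33 ± 0.26 and 0.28 ± 0.40 from fetus to 120 days, and neither passed (limma adjusted p = 0.322 and 0.594).

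Large and small subunit genes were set side by side, with no test of their difference. The median change was -0.0012 in the large and 0.018 in the small subunit from fetus to 3 days, -0.27 and -0.32 from 3 to 60 days, 0.17 and 0.18 from 60 to 120 days, and -0.18 and -0.14 from fetus to 120 days. Without the first 60-day array the middle values became -0.0012 and -0.043, then -0.097 and -0.11. The median log2 intensity of the small subunit lay above that of the large by 0.21 to 0.35 on 11 arrays and by 0.027 on the first 60-day array. Probe sets differ in brightness, so only the change of this gap between arrays is read. Its stage means were 0.28 ± 0.057, 0.29 ± 0.030, 0.22 ± 0.17 and 0.26 ± 0.041 (SD, n = 3), and they differed by less than the spread at 60 days.

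**Figure D3:**
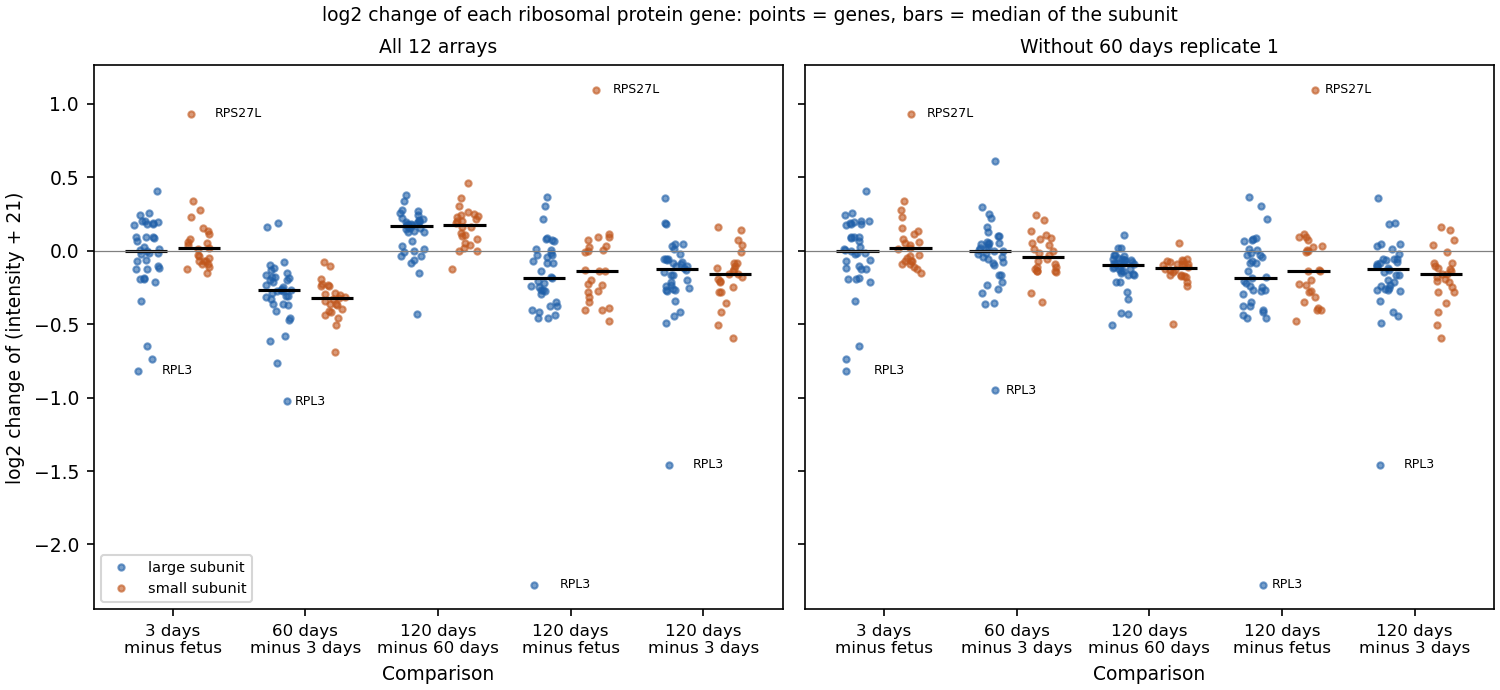
Change of each large (blue) and small (orange) subunit gene, as log2(intensity + 21), in 5 comparisons of stages, with all 12 arrays (left) and without the first 60-day array (right); points are genes and bars the subunit medians. RPL3 is the lowest point in each comparison with the fetus or with 3 days, RPS27L is the highest point against the fetus, and the bars at 60 days move from -0.27 and -0.32 to -0.0012 and -0.043.

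For 24 of the 64 genes the array held more than 1 probe set, 32 further ones in all, of which 27 passed the filter. They were set against the brightest probe set of their gene. At 120 days against fetus, 9 of the 10 with a mean intensity of at least 1000 had the same sign as it, with a largest gap of 0.17 on the log2 scale, and 8 of the 17 dimmer ones did, with gaps up to 1.88. The order of these shares was not the same in every comparison. At 3 days against fetus the same sign was found in 5 of 10 brighter (gaps up to 0.40) and 11 of 17 dimmer ones (gaps up to 1.49), at 60 against 3 days in 8 of 10 and 14 of 17, and at 120 against 3 days in 5 of 10 and 9 of 17. Of the 17 dimmer ones limma called 4 higher and 2 lower at 3 days and 5 higher and 3 lower at 120 days against fetus, and of the 10 brighter ones it called 0 at either step. Over all probe sets 20.3% were called higher and 22.6% lower at 3 days, and 23.4% and 25% at 120 days against fetus. An RPL35 probe set with a mean of 225 was 1.51 higher at 3 days than in the fetus (limma adjusted p = 0.00266), while the brightest RPL35 probe set, with a mean of 3999, differed by 0.015. At the same step dim probe sets of RPL13A (0.89), RPL27 (0.72) and RPS12 (0.59) were called higher, and those of RPLP1 (-0.54) and RPLP0 (-0.45) lower. A further 8 probe sets named several genes, with RPL10, RPL35A, RPL36 and RPS15 among them, and were not used. Ribosomal protein genes have many pseudogenes, and which transcripts a dim probe set reads was not tested.

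**Figure D4:**
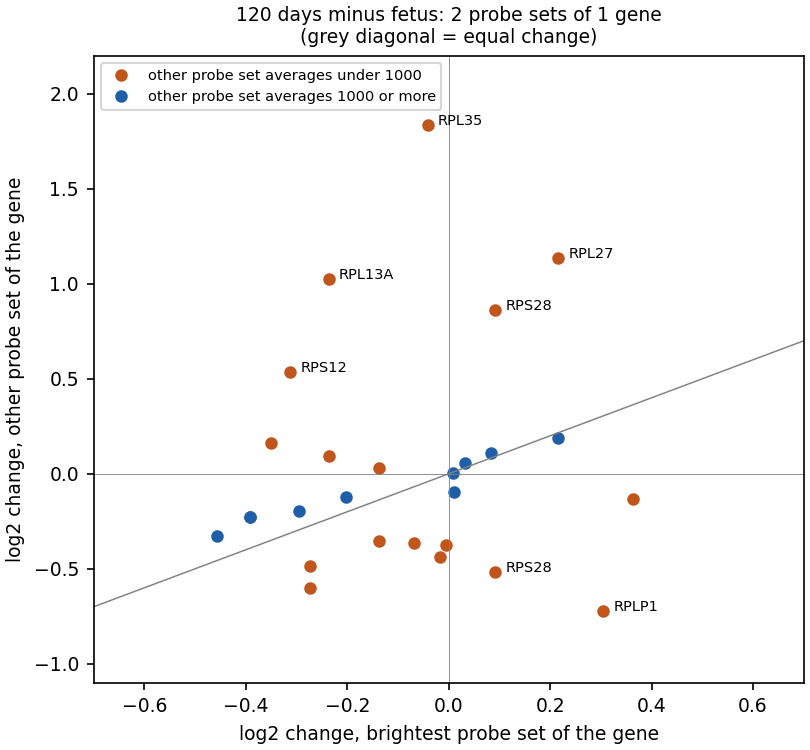
Change from fetus to 120 days, as log2(intensity + 21), of the 27 further probe sets (vertical) against the brightest probe set of the same gene (horizontal); blue marks a mean intensity of at least 1000 and orange a lower one, and the diagonal is equal change. The 10 blue points keep within 0.17 of the diagonal, and orange points reach 1.88 from it.

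The scale of the arrays bears on these directions. Centring the arrays on 18 spiked hybridization controls moved the median of all probe sets to -0.28 at 3 days and -0.43 at 120 days against fetus. On that scale 0 ribosomal protein genes were called higher and 6 lower at 3 days, and 0 and 39 at 120 days, with medians of -0.26 and -0.59. Of all 16166 probe sets 1262 were then called higher and 5286 (32.7%) lower at 3 days, and 1197 and 7134 (44.1%) at 120 days. Quantile normalization gave 0 higher and 5 lower at 3 days, and 1 and 17 at 120 days, with medians of -0.16 and -0.29 where those of all probe sets were 0.051 and 0.057. By that method 3589 of the 16166 probe sets were called higher and 3249 lower at 3 days, and 4115 and 3731 at 120 days. RPL3 was lower and RPS27L higher on every scale tried, whereas RPLP1 and RPL38 turned below 0 with the spiked controls, a scale that moves all probe sets of an array alike. Of all probe sets called, the share called higher became 19.3% at 3 days and 14.4% at 120 days, from 47.3% and 48.3%.

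Other transcripts that start with the same pyrimidine tract, mainly elongation and initiation factors, were measured for 22 genes of 27. Of these 1 was called higher and 7 lower at 3 days, with a median of -0.11, and 2 higher and 6 lower at 120 days against fetus, with -0.13. The shares over all probe sets were 20.3% higher and 22.6% lower, then 23.4% and 25%. VIM, the intermediate filament vimentin, fell by 1.45 on the log2 scale (SE 0.19, limma adjusted p = 0.000135) and EIF3L, a subunit of initiation factor 3, by 1.13 (SE 0.26, limma adjusted p = 0.00484) at 3 days. HNRNPA1, an RNA-binding splicing factor, fell from 2115 ± 438 to 1036 ± 117 (SD, n = 3; limma adjusted p = 0.00606). PABPC1, the poly(A)-binding protein, had 2963, 5197 and 3679 in the fetus and 1364, 1265 and 1531 at 120 days, and fell by 1.46 (SE 0.23, limma adjusted p = 0.000308). From 3 days on 0 genes of the list were called by limma, with 4, 0 and 2 at an unadjusted p under 0.05 at 60 against 3, 120 against 60 and 120 against 3 days. The counts of 8 became 5 without the second fetal or the first or second 3-day array at 3 days, and 5 without the first fetal or the first or second 120-day array at 120 days. Whether these changes differ from those of the ribosomal proteins was not tested. FAU, whose product is cleaved to a small subunit protein but whose symbol lay outside the choice, was looked up after its values were seen. It had 2308 on the first 60-day array and 4046 to 5283 on the other 11. Of the 22 genes of the list, FAU included, 8 lay above their stage mean on the first 60-day array, with a median deviation of -0.13.

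Factors that build the ribosome, with RNA polymerase I, were measured for 47 genes of 61, RPL7L1 and RPS19BP1 among them. Of these 12 were called higher and 0 lower at 3 days, with a median of 0.33, and 41 had a positive change. Of all probe sets 20.3% were called higher and 22.6% lower at that step. NOP16, a nucleolar protein, had means of 149 ± 57.0 and 426 ± 41.1 (SD, n = 3) and changed by 1.44 ± 0.27 on the log2 scale (limma adjusted p = 0.00135). BOP1, of the complex that processes the large subunit RNA, changed by 0.76 ± 0.15 (limma adjusted p = 0.00159), and NHP2, of the box H/ACA particles that modify ribosomal RNA, by 1.64 ± 0.32 (limma adjusted p = 0.00187). Without the second fetal array the count was 6. At 120 days against fetus 10 were higher, among them IMP3, RRP9 and NMD3, and 3 lower, both below the 23.4% and 25% of all probe sets, with counts of 6 to 8 without the second fetal or any 120-day array.

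Against 3 days, DKC1, the pseudouridine synthase of those particles, was lower at 120 days by -0.80 ± 0.17 (limma adjusted p = 0.0244) and MRTO4, an assembly factor of the stalk, by -0.71 ± 0.18 (limma adjusted p = 0.0414), the 2 genes called there. Of all probe sets 2.29% were called higher and 2.12% lower in that comparison. The count of 2 fell to 0 or 1 without any array of either stage. With the hybridization controls as scale, the counts at 3 days became 4 higher and 3 lower, and at 120 days 1 and 15. On that scale 1262 of the 16166 probe sets were called higher and 5286 lower at 3 days, and 1197 and 7134 at 120 days against fetus.

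Growth signalling to the ribosome was represented by 15 measured genes of 30 listed from the insulin, mTOR and S6 kinase pathway and their effectors. MTOR, RPTOR, RPS6KB1, RPS6KB2, EIF4EBP1 and LARP1 were listed but not measured, and of the RPS6K genes only RPS6KA1 and RPS6KA3 were. At 3 days 3 were called higher and 2 lower, and at 120 days against fetus 4 and 4, near the shares of all probe sets (20.3% and 22.6%, then 23.4% and 25%). The first count, 5 in all, became 8 without the second 60-day array. LARP4, an RNA-binding protein of the La family, was higher at 3 days by 0.80 ± 0.16 (limma adjusted p = 0.0022) and TSC1, an inhibitor of mTOR, by 0.45 ± 0.11 (limma adjusted p = 0.0057), whereas the kinase RPS6KA1 was lower by -0.85 ± 0.15 (limma adjusted p = 0.000792). At 120 days MAF1, the repressor of RNA polymerase III, was higher by 1.37 ± 0.24 (limma adjusted p = 0.000638) and AKT1 lower by -1.27 ± 0.24 (limma adjusted p = 0.00113). MAF1 had 185, 144 and 197 in the fetus and 521, 490.1 and 440.4 at 120 days. With the hybridization controls as scale the counts became 1 and 5, then 1 and 8. Over all 16166 probe sets they became 1262 higher and 5286 lower, then 1197 and 7134.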

How the data were processed

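The deposited table gives linear intensities for every probe set on every array. Biotin-labelled cRNA was made from Trizol-extracted total RNA, per the labels' protocols, and the submitters' processing notes name GCOS 1.4. How probes were summarised, corrected for background and scaled is not given in the sources used. Medians of the arrays ran from 49.07 to 52.59, so the scale was kept as deposited by the authors.

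Of 24123 probe sets, 124 controls were set aside. The filter kept 16166 probe sets (67.4%), those that exceeded the 40th percentile of an array on 3 or more arrays. By the platform annotation 10069 probe sets have 1 symbol and 198 several, and 13732 are unlisted. Values were log2(intensity + 21), with 21 set at the 25th percentile over the table. All 12 arrays entered 1 limma 3.58.1 fit (R 4.3.3) with a mean per stage and a variance trend. Two-sided p-values were adjusted by Benjamini-Hochberg over all kept probe sets, and the code was tested on simulated data.

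The members and lists were chosen with earlier results of these data known. Genes named are all members called, paralogs and their parents, a fixed set of stalk, 5S-binding, reference and other well-known members, and the 3 widest and 3 narrowest in spread; of each other list, up to 3 called genes per comparison by p. RPL4, RPS21, RPS12, RPS2, RPL38 and the genes called without the first 60-day array were named after their values were seen. No sequences or coordinates are given.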

Additional observations from a re-analysis of the deposited data

How the results depend on the processing

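The counts are of the 62 ribosomal protein genes called by limma, for the F test (2), 3 days against fetus (3), 60 against 3 days (1), 120 days against fetus (5) and 120 against 3 days (1). Quantile normalization gave 13 by the F test, 5 at 3 days and 18 at 120 days against fetus, with medians of -0.16 and -0.29. Centring on hybridization controls gave 36, 6 and 39, and 2 against 3 days, with medians of -0.26, -0.59 and -0.29. Centring on array medians gave 3 at 120 days against fetus. Array weights gave 18, 8, 3, 16 and 12 in the order above. Without the filter 0 genes were called at 60 against 3 days. With only the 6 arrays compared the last 3 counts were 0, 13 and 5. Without the second fetal and first 60-day arrays together they were 0, 21 and 7, and 13 by the F test. Leaving out 1 array gave 1 to 12, 0 to 6, 0 to 1, 1 to 17 and 1 to 2. The medians then ranged from -0.034 to 0.043, -0.48 to -0.020, -0.21 to -0.11 and -0.18 to -0.090, and from -0.10 to 0.33 at 120 against 60 days. The large minus small difference then ranged from -0.037 to 0.036 (3 days against fetus), 0.042 to 0.11 (60 against 3 days), -0.035 to 0.018 (120 against 60 days), -0.049 to 0.0042 (120 days against fetus) and -0.0071 to 0.073 (120 against 3 days). RPLP1 turned to -0.020 and -0.13 against fetus with hybridization controls, and to -0.14 and -0.21 with the mean of all its probe sets. RPL38 turned to -0.068 with hybridization controls, and RPS12 to 0.11 with the mean of its probe sets, at 120 days against fetus. The cause was not tested. The deviations of same-numbered arrays correlated between -0.42 and 0.30 over 18 pairs. Those of differently numbered arrays of different stages correlated between -0.41 and 0.65, so no pairing by number was seen. With the replicate number as a block, 1, 2, 0, 2 and 1 genes were called, and calls over all probe sets went from 247 to 161 at 60 against 3 days. Signal over background limits RPL26, RPL30, RPL37 and RPS15A.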
